A study of Mus musculus with 4 samples.

Results

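The 10 genes described here encode the nucleoplasmins (Npm1, Npm2 and Npm3), chaperones of histones H3 and H4, among them those of the replacement histone H3.3 (Nasp, Asf1a, Asf1b and Hira), and the HMG-box proteins Hmgb1, Hmgb2 and Hmgb3. They were found by their exact symbols among the 17945 genes of the deposited transcript table, and all 10 were present and passed the low-count filter. The list was chosen by function and on measured values: Npm2 and Hmgb2 were selected on their higher counts in SN oocytes. The comparison of SN with NSN is therefore given for the members as a description, without a p-value for any of them.

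The cells were mouse oocytes at the germinal vesicle stage, arrested in the prophase of meiosis with an intact nucleus, taken from unprimed females at postnatal day 20. The oocytes of both classes were held in milrinone, which prevents the resumption of meiosis. Surrounded nucleolus (SN) oocytes, in which condensed chromatin rings the nucleolus, were set against non-surrounded nucleolus (NSN) oocytes, in which it does not; the class was assigned to each live oocyte by a neural network that read bright-field images. There were 15 oocytes and 2 libraries in each class, and how the oocytes were divided between libraries, the strain, and whether replicates came from different animals are not given in the sources used here. Any p-value below thus weighs a difference against the scatter of these 4 libraries alone, and that scatter may be technical. RNA was captured by its poly(A) tail, so a level given here is the level of transcripts that keep a tail long enough to be captured, and neither it nor a difference between classes can be told apart from a change in tail length or in RNA per oocyte.

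Histone chaperones hold histones away from DNA and hand them over when nucleosomes are built or exchanged. Nucleoplasmins form pentamers that bind core histones: Npm1 is a ubiquitous nucleolar protein, Npm2 is made by oocytes and eggs, and Npm3 is a relative that binds Npm1. In mice that lack Npm2, oocytes lose the heterochromatin that normally circles the nucleolus. Nasp keeps a soluble pool of histones H3 and H4, Asf1a and Asf1b pass H3-H4 dimers on, and Hira, with its partners Ubn1 and Cabin1, places H3.3 into chromatin outside DNA replication. Hmgb proteins are abundant chromatin proteins that bend DNA through a pair of HMG boxes and end in an acidic tail.

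The 10 genes had 29 transcript models in the table, 20 curated and 9 predicted. The 3′ ends of the models on which the results turn are shown because poly(A) capture starts there, and because the main models of Nasp, and those of Npm1, end at different sites. Each line is a window of 30 bases of the sense strand, 5′ to 3′, from the GENCODE M21 transcript that the table pairs with the RefSeq model, with the poly(A) signal AATAAA in capitals.
Npm2, leading model: gcctagggccacAATAAAatttgcatgatc
Nasp, model of 773 codons: ttgtataactccAATAAAgattgtaggcaa
Nasp, model of 448 codons: tttgtctataaaAATAAAtatgctaatttt
Npm1, model of 257 codons: ttagctactctcAATAAAtttttaaatgaa
These windows lie on the minus strand of GRCm38, the assembly that mm10 names, at chr14:70647304-70647333, chr4:116601611-116601640, chr4:116601055-116601084 and chr11:33154929-33154958. In the last 100 bases, AATAAA was found in 64.1% of the leading models of the 9989 tested genes with a matched sequence, and AATAAA or ATTAAA in 78.8%, searched on the sense strand only. The leading models of Npm1, Hmgb1 and Hmgb2 held neither of these signals in that window. TTTTAT or TTTTAAT, the letters of the cytoplasmic polyadenylation element, occurred once in that window of Asf1b and of the leading Hmgb2 model, and in 18.3% of the same 9989 models. In the 3′ windows of the other members' models with a matched sequence and at least 5% of their gene, those letters were not found.

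The members spanned 3 orders of size, from one of the most abundant mRNAs of the oocyte to transcripts below the middle rank of the genes tested. Levels between genes are compared as the authors' TPM, which takes transcript length into account, summed over the models of a gene. Npm2 led with a mean of 2992 TPM over the 4 libraries, rank 38 of 13426 genes tested, and Npm1 followed at 995.4 TPM, rank 167. Asf1a (310.3 TPM), Hmgb2 (274.8 TPM) and Asf1b (265.5 TPM) came next, and the ranges over libraries of neighbours in this trio overlapped, so their order is not fixed. Hmgb1 averaged 131.2 TPM, Nasp 103.3 TPM and Hmgb3 40.1 TPM. Npm3 and Hira were far below, at 2.615 and 1.495 TPM, ranks 8613 and 9805. Outside the trio, no range touched that of the next gene. These are levels within the same 4 libraries and share their depth and composition, so the order is a description.

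**Figure D1:**
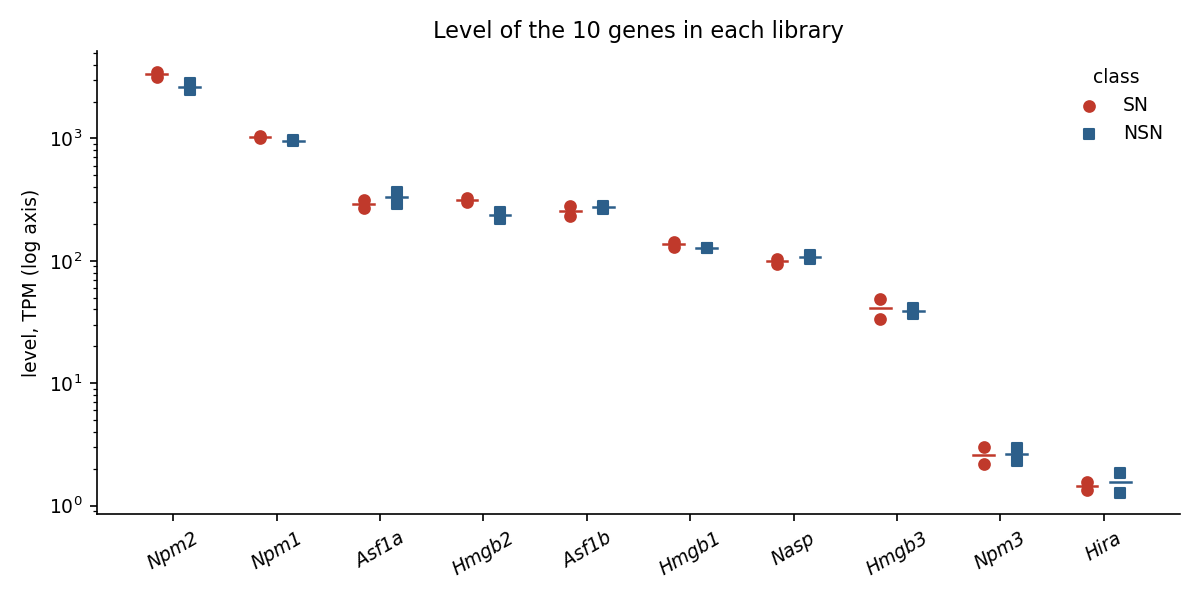
Level of the 10 genes in TPM (log axis) in each library, ordered by mean level; circles are SN libraries, squares NSN libraries, and short lines the class means (n = 2 each). Npm2 sits at 2487 to 3500 TPM in all libraries, and Npm3 and Hira lie below 3 TPM.

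Within the nucleoplasmins, Npm2 carried 77.5% and 75.1% of the family's TPM in SN replicates 1 and 2, against 74.8% and 71.8% in NSN replicates 1 and 2. Npm1 made up nearly all of the rest, and Npm3 between 0.0485% and 0.0852%. Hmgb2 was the main Hmgb transcript, with 66.7% and 61.1% of the family in SN libraries and 60.5% and 56.9% in NSN libraries, and Hmgb3 was the smallest part at 6.85% to 10.6%. Asf1a and Asf1b were close to parity: Asf1a held 52.3% to 56.7% of their sum in the 4 libraries. A paralog's share is itself subject to how reads of similar sequence were divided. In GENCODE M21, which includes pseudogenes, none of the 50-base words in the leading Npm2, Asf1a or Asf1b transcript occurred in a transcript of another gene, whereas 40.9% did for Npm1, 36.8% for Hmgb1, 38% for Hmgb3, 31.9% for Npm3 and 21.9% for Hmgb2. Hmgb1 shared words with 130 other annotated genes, so its level and those of Npm1 and Hmgb3 may be less certain than that of Npm2. The 48574 deposited models were 24159 curated and 24415 predicted ones, so the words were counted over a different set of transcripts. How far the shared words bear on the division of reads was not tested.

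Against NSN, the SN oocytes had more Npm2 and Hmgb2 transcript, by 1.41-fold and 1.51-fold, with smaller differences of the same sign for Npm1, Hmgb1 and Hmgb3, and almost none for Asf1a. Differences are the log2 of SN over NSN fitted by edgeR to estimated counts, with a standard error (SE); CPM are counts per 1000000 counts of a library size scaled by TMM, a trimmed-mean factor that matches the libraries on the bulk of genes. No gene of the whole table was called: edgeR's quasi-likelihood test passed 0 of 13426 genes at an adjusted p of 0.05 (0%), hence 0 of the 10. Before adjustment, 1004 genes had a p under 0.05, and SN was the higher class in 539 and the lower in 465. By DESeq2, an alternative test, the calls were 47 of the 672 genes given an adjusted p (6.99%), with 46 higher in SN. Nasp, Hmgb3, Hira and Npm3, the least abundant members in CPM, were not among the 672. The 6.99% is thus not a share of all genes tested. Npm2 and Hmgb2 were the 2 members among the 47, and since both were listed for this difference, their calls add no support. Leaving out SN replicate 2 gave an edgeR count of 289, leaving out SN replicate 1 gave 27, and leaving out an NSN library gave 2 in each case. Such a fit sets 1 library against 2, takes the spread from the class that keeps both, and assumes that the lone library varies likewise.

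Npm2 (gene ID 328440, chr14:70647296-70661802) stood at 3500 and 3166 TPM in SN replicates 1 and 2 and at 2816 and 2487 TPM in NSN replicates 1 and 2. On the CPM scale it was at 2340 and 1836 CPM in the SN libraries, against 1637 and 1318 CPM in the NSN libraries. Both SN libraries lay above both NSN libraries on either scale, but SN replicate 2 was nearer to NSN replicate 1 than to SN replicate 1 in CPM. The fitted difference was a log2 of 0.50 (SE 0.17), and leaving out SN replicate 1 made it 0.319, leaving out SN replicate 2 made it 0.667.

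Hmgb2 (gene ID 97165, chr8:57511843-57515999) was at 328.5 and 299.5 TPM in the SN libraries, against 249.6 and 221.4 TPM in the NSN libraries. Its CPM were 687.2 and 544.4 in SN and 450.5 and 364.8 in NSN. The classes did not overlap on either scale, and in CPM SN replicate 2 was nearer to NSN replicate 1 than to SN replicate 1. Its log2 difference of 0.60 (SE 0.15) was the largest of the 10 genes, and it became 0.423 when SN replicate 1 was left out, and 0.757 when SN replicate 2 was.

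Npm1 (gene ID 18148, chr11:33152498-33164142) was at 1013 and 1049 TPM in SN libraries, against 947.1 and 972.9 TPM in NSN libraries, a log2 difference of 0.27 (SE 0.13) in the fit to counts. Hmgb1 (gene ID 15289, chr5:149046702-149053057) was at 130.2 and 141.9 TPM in SN libraries and 126.4 TPM in each of the NSN libraries, with a log2 difference of 0.28 (SE 0.10). For both genes the classes did not overlap, and the gap in TPM was small beside the level. Hmgb3 (gene ID 15354, chrX:71555917-71560673), known for its role in blood stem cells, was at 33.7 and 48.8 TPM in SN libraries and 36.7 and 41.4 TPM in NSN libraries. In TPM its SN libraries were the lowest and the highest of the 4, while in CPM, at 39.1 and 49.1 in SN libraries and 36.8 and 37.9 in NSN libraries, the classes did not overlap. Its log2 difference of 0.24 (SE 0.12) rested mainly on SN replicate 2, and with that library left out it was 0.071.

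The chaperones of H3 and H4 differed little. Nasp (gene ID 50927, chr4:116601052-116628676) was at 93.5 and 103.9 TPM in SN libraries and 103.7 and 112.1 TPM in NSN libraries, and its log2 difference in the fit to counts was 0.12 (SE 0.09). The sign of Nasp thus turned with the scale, and it was negative on TPM and with library size alone. Asf1a (gene ID 66403, chr10:53596961-53609225) was at 270.5 and 311.1 TPM in SN libraries and 291.6 and 368.2 TPM in NSN libraries, with a log2 difference of -0.003 (SE 0.12). Asf1b (gene ID 66929, chr8:83955694-83970195) was at 233 and 281.7 TPM in SN libraries and 265.9 and 281.4 TPM in NSN libraries, with a log2 difference of 0.08 (SE 0.10). The TPM of the classes overlapped for Nasp and both Asf1 genes. In CPM Asf1a overlapped, but Nasp, at 191.7 and 188.9 in SN libraries and 173.1 and 177 in NSN libraries, did not. Asf1b did not either, at 272.9 and 286.3 CPM in SN libraries and 269.3 and 259.9 CPM in NSN libraries.

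Hira (gene ID 15260, chr16:18876750-18970309) was measured from few reads: 113 and 126 estimated counts in SN libraries and 90 and 119 in NSN libraries. Its levels were 1.33 and 1.56 TPM in SN libraries and 1.26 and 1.83 TPM in NSN libraries, with a log2 difference of 0.15 (SE 0.26). A predicted model carried 71.8% to 92.9% of that level, and the curated model 3.85% to 14.3%. Of the 50-base words of the curated model, 64.4% also occur in the annotated gene Gm28539, the highest such share among the searched models of the 10 genes. The predicted model had no matched sequence and was not searched, so the Hira level is uncertain. Npm3 (gene ID 18150, chr19:45747734-45749565) had 40 and 53 counts in SN libraries and 37 and 45 in NSN libraries, with a log2 difference of 0.13 (SE 0.40). For neither gene did the difference exceed its SE, so none was detectable at this depth.

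Counted over the list, 7 of the 10 genes had both SN libraries above both NSN libraries in CPM and 0 had both below, against 18.3% and 20.7% of all genes tested (39% in either direction). By library size alone, the split was 4 and 0 of the 10, against 6.15% and 36.5% of all genes; in TPM it was 4 and 0, against 4.97% and 36.9%. The genes above on all 3 scales were Npm1, Npm2, Hmgb1 and Hmgb2. A fitted log2 above 0 was found for 9 of the 10 and for 48% of all genes. Nothing is read from these counts, since the comparison helped to choose the list. The median log2 of the 10 was 0.20, against -0.01 over all genes tested. Without the TMM scaling the median of all genes moved to -0.15, and on log2(TPM + 1) to -0.13. Relative to the median of all genes, the sign of 8 of the 10 held in every alternative tried. The exceptions were Asf1a (3 of 13 alternatives) and Asf1b (1 of 13). For Nasp, Hira and Npm3 it held barely, with lowest relative values of 0.005, 0.011 and 0.036. The share of all genes that hold their sign was not counted, so nothing is read from this count either.

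Abundance moved with the difference across all genes. Of the 504 genes between a log2 CPM of 8 and 10, 84.3% were higher in SN, with a median log2 of 0.13, and 45.2% had both SN libraries above both NSN libraries. Above 10, the 125 genes had a median of 0.26, 98.4% were higher in SN, and 65.6% did not overlap. Npm1, Asf1a, Asf1b, Hmgb1 and Hmgb2 fell in the range from 8 to 10 and Npm2 above 10. Asf1a and Asf1b lay below the median of their range, and Npm1, Hmgb1, Hmgb2 and Npm2 lay above that of theirs. In a normalization that removes such trends (cyclic loess), the log2 was 0.27 for Npm2, 0.46 for Hmgb2, 0.095 for Npm1 and 0.19 for Hmgb1. It was -0.13 for Asf1a and -0.017 for Asf1b. The part of abundance in these differences was not tested further.

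**Figure D2:**
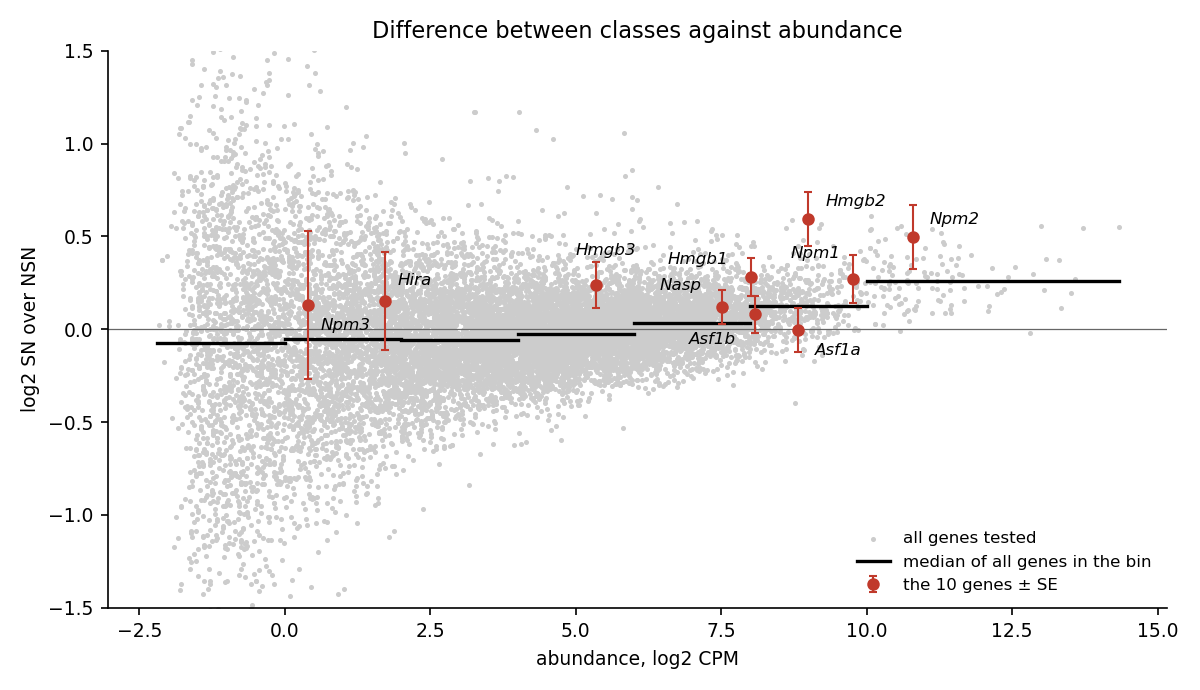
Fitted log2 difference of SN over NSN against abundance in log2 CPM: grey points are all genes tested (100 lie beyond the plotted range), black lines the median of all genes in each abundance range, and red points the 10 genes with their SE. Hmgb2 (0.60), Npm2 (0.50), Hmgb1 (0.28) and Npm1 (0.27) lie above the line of their range, and Asf1a (-0.003) and Asf1b (0.08) below it.

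The libraries of a class were also not alike. In SN replicate 1, the log2 CPM of Npm2 exceeded the average of the remaining libraries by 0.57 and that of Hmgb2 by 0.62; in SN replicate 2, the values were 0.10 and 0.17. In NSN replicate 1 they were -0.12 and -0.19, and in NSN replicate 2 they were -0.54 and -0.60. The median gene above a log2 CPM of 10 stood in the same order, at 0.35 and -0.01 in the SN libraries and -0.07 and -0.27 in the NSN libraries. SN replicate 1 and NSN replicate 2 were thus the extremes for Npm2, Hmgb2 and abundant genes alike.

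**Figure D3:**
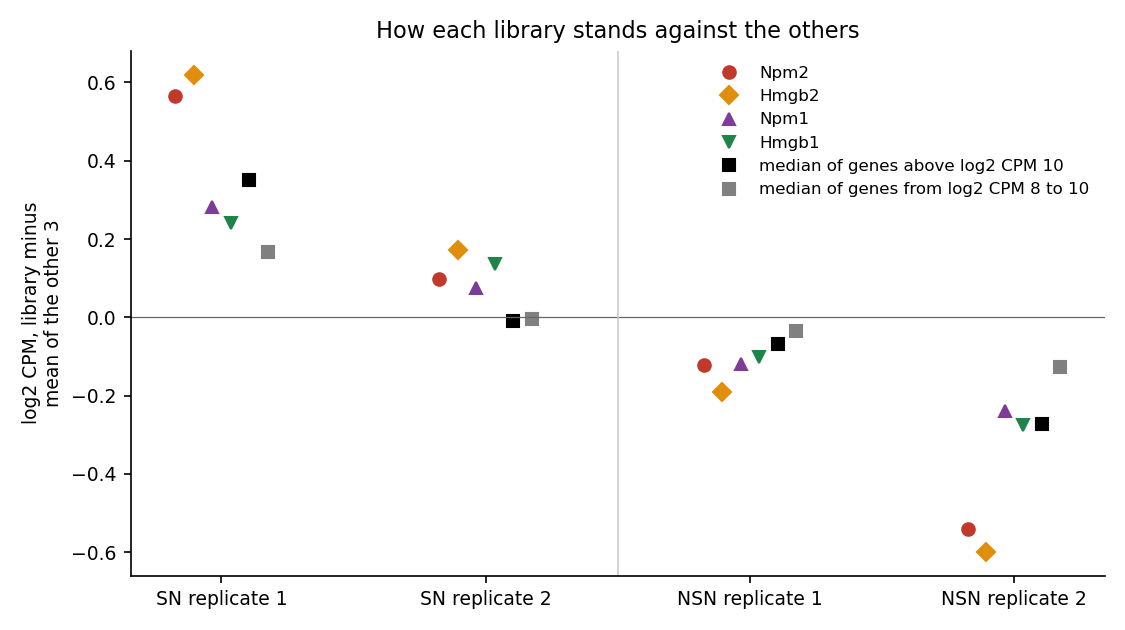
Log2 CPM of a library minus the mean of the other libraries, for Npm2, Hmgb2, Npm1, Hmgb1 and the median of all genes in the upper abundance ranges. SN replicate 1 is highest and NSN replicate 2 lowest for each of them, with Hmgb2 at 0.62 and -0.60.

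Genes whose pattern over the 4 libraries was nearest to that of Npm2 were found by the Euclidean distance of centred log2 CPM, among the 2496 genes with a mean of at least 5 CPM and an SD over the libraries at least 0.5 times that of Npm2. They were Omd (distance 0.023; osteomodulin, a proteoglycan), Rgs2 (0.044; a regulator of G protein signalling) and Gng3 (0.050; a G protein gamma subunit). Rgs2 was at 1403 and 1121 CPM in SN libraries and 963.9 and 775.7 CPM in NSN libraries. The nearest to Hmgb2, among the 1871 genes that met the same limits set by its own, larger SD, were Gm36712 (0.045), Tpm3 (0.057; a tropomyosin) and again Rgs2 (0.058). With 4 libraries such likeness is a description.

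Within single genes, the balance of transcript models differed most for Nasp. Its longer form, of 773 codons, contains an internal acidic stretch that the shorter one lacks and is known from testis and embryonic cells as tNASP; the form of 448 codons is the somatic sNASP. The long form was at 50.5 and 61.5 TPM in SN libraries and 41.4 and 54.4 TPM in NSN libraries. The short form was at 42.2 and 42.3 TPM in SN libraries, against 62.2 and 57.6 TPM in NSN libraries. In TPM the short form was lower in both SN libraries, while the long form overlapped between classes. In CPM the long form did not overlap, at 122.5 and 129.6 in SN libraries and 86.7 and 103.8 in NSN libraries, and the short form was again lower in both SN libraries, at 67.9 and 59.1 against 86.4 and 73 in NSN libraries. As a share of the gene, the long form made up 56.6% ± 3.6 in SN and 44.2% ± 6.0 in NSN (SD, n = 2 each), a difference of 12.4 percentage points, and the shares did not overlap. Over 2886 genes with at least 2 models of 10% or more and a mean of at least 5 TPM, the median absolute difference of the leading model was 4.12 points, the upper quartile 8.63, and 39.9% did not overlap. The models also differ at the 3′ end, with 107 bases after the stop codon in the long form and 664 in the short one, at the sites printed above. The authors' deposited table gave a log2 ratio of 0.39 for the long model and -0.34 for the short one.

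Npm1 had a leading model of 292 codons and a shorter one of 257 codons. The shorter model was at 268.9 and 289.9 TPM in SN libraries, against 229.1 and 217.7 TPM in NSN libraries. The leading model was at 743.6 and 759.1 TPM in SN libraries and 717.8 and 755.2 TPM in NSN libraries. In TPM the gap in Npm1 lay mainly in the short model. In CPM the leading model averaged 716.3 in SN and 621.8 in NSN and the short one 236.4 in SN and 168.3 in NSN, so the larger part of the gap lay in the leading model. The share of the gene carried by the short model was 27.1% ± 0.76 in SN and 23.3% ± 1.3 in NSN (SD, n = 2 each), without overlap. The share of the leading Npm1 model differed by -3.81 percentage points. Over the 2886 genes described above, the median absolute difference was 4.12 points, and 39.9% did not overlap. In Hmgb2 the balance was even: the leading model took 83.5% ± 1.1 in SN and 83.2% ± 0.28 in NSN, and the next model 16.1% ± 1.2 in SN and 15.9% ± 0.42 in NSN (SD, n = 2 each). Both Hmgb2 models were higher in SN, with the authors' deposited table giving a log2 ratio of 0.59 and 0.61. Npm2 came almost wholly from its curated model of 207 codons, with a mean of 99.7% in each class. The division of reads among models of a gene is an estimate whose error these values do not contain.

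**Figure D4:**
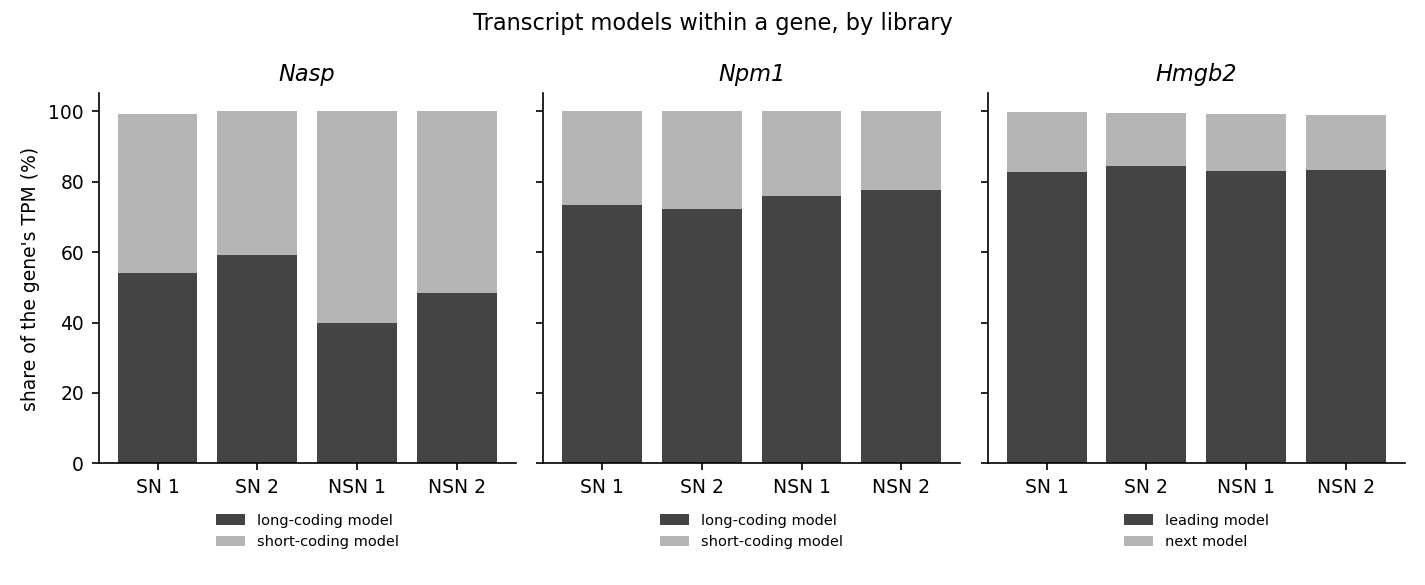
Share of the gene's TPM (%) carried by the leading 2 models of Nasp, Npm1 and Hmgb2 in each library; bars start at 0 and the small remainder belongs to other models. The long-coding Nasp model is at 54.1% and 59.2% in SN libraries and at 40.0% and 48.5% in NSN libraries.

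The partners and cargo of these chaperones were measured in the same libraries. H3f3a and H3f3b, which encode the same H3.3 protein, were both abundant. H3f3a was at 1315 and 1237 TPM in SN libraries, against 1118 and 1128 TPM in NSN libraries, with a log2 difference of 0.36 (SE 0.14, edgeR adjusted p = 0.662). H3f3b was at 1151 and 1281 TPM in SN libraries and 1224 and 1338 TPM in NSN libraries, with a log2 difference of 0.10 (SE 0.14, edgeR adjusted p = 0.881). Neither passed the test. H3f3b overlapped in TPM, and in CPM both genes were higher in both SN libraries. The same held for 45.2% of all genes from a log2 CPM of 8 to 10, the range of H3f3a. Above 10, the range of H3f3b, it held for 65.6%. Of Hira's partners, Ubn1 was at 15.4 and 16.5 TPM in SN libraries and 17.8 and 22.4 TPM in NSN libraries, Ubn2 at 3.11 and 3.58 TPM in SN and 3.44 and 4.05 TPM in NSN, and Cabin1 at 6.56 and 6.89 TPM in SN and 7.68 and 7.72 TPM in NSN. In TPM both SN libraries lay below both NSN libraries for Ubn1 and Cabin1, as for 36.9% of all genes tested, and Ubn2 overlapped. In CPM the classes overlapped for each of these partners, with log2 differences of -0.15 (SE 0.10), 0.02 (SE 0.11) and 0.06 (SE 0.12) in the order given. All 3 lay above Hira in level. Daxx and Atrx form the other H3.3 deposition complex, which acts at heterochromatin and telomeres. Daxx was at 4 and 4.81 TPM in SN libraries and 4.89 and 4.55 TPM in NSN libraries. Atrx was at 19.4 and 21.9 TPM in SN libraries and 17.5 and 21.8 TPM in NSN libraries, with a log2 difference of 0.26 (SE 0.10, edgeR adjusted p = 0.662).

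None of 35 other histone chaperones passed the edgeR test in either direction, and their median log2 was 0.04, against -0.01 over all genes. At an unadjusted p under 0.05, 4 of the 35 were higher and 2 lower in SN, against 4.01% and 3.46% of all genes. Rbbp7, a histone-binding subunit of several chromatin complexes, was the most abundant, at 1462 and 1492 TPM in SN libraries and 1280 and 1522 TPM in NSN libraries. Hat1, which acetylates newly made histone H4, followed at 220.5 and 260.4 TPM in SN libraries and 261.3 and 241.2 TPM in NSN libraries. Both overlapped in TPM. In CPM Hat1 overlapped too, but Rbbp7 did not, at 2443 and 2175 in SN libraries and 1822 and 1983 in NSN libraries (log2 0.28, SE 0.15, edgeR adjusted p = 0.708). Above a log2 CPM of 10, the range of Rbbp7, 65.6% of all genes had both SN libraries above both NSN libraries. The median log2 in that range was 0.26. Ncl, nucleolin, had the smallest unadjusted p of the list, with 353.5 and 376 CPM in SN libraries and 272 and 284.5 CPM in NSN libraries (log2 0.39, SE 0.10, edgeR adjusted p = 0.633); DESeq2 called it. Chaf1a, of the complex that loads H3 during DNA replication, was at 51.8 and 54.8 TPM in SN libraries and 61.5 and 64.5 TPM in NSN libraries, with a log2 difference of -0.06 (SE 0.09) in the fit to counts.

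Of 17 other genes with HMG boxes or HMG-nucleosome binding domains, 15 were in the table and tested, and none passed the edgeR test. Their median log2 was -0.06, with 5 above 0 and 10 below, against 48% of all genes above 0. At an unadjusted p under 0.05, 1 of the 15 was higher and 2 were lower, against the same 4.01% and 3.46% of all genes. Hmgn1 and Hmgn2, which bind nucleosomes and loosen chromatin, were the most abundant, at 326.5 and 345.2 TPM in SN libraries and 338.1 and 398.3 TPM in NSN libraries for Hmgn1. Hmgn2 was at 143.1 and 193.7 TPM in SN libraries and 173 and 185.5 TPM in NSN libraries. Hmgn3 had a log2 difference of 0.38 (SE 0.10, edgeR adjusted p = 0.662), with 49.4 and 50.7 CPM in SN libraries and 37.8 and 39.4 CPM in NSN libraries. Tox4 was at 5.34 and 5.32 CPM in SN libraries and 7.05 and 7.52 CPM in NSN libraries, with a log2 difference of -0.45 (SE 0.20, edgeR adjusted p = 0.662). With SN replicate 2 left out, Ubtf and Tox3 of this list were among the 289 genes called in the whole table, with SN then a single library and the spread taken from the NSN pair.

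**Figure D5:**
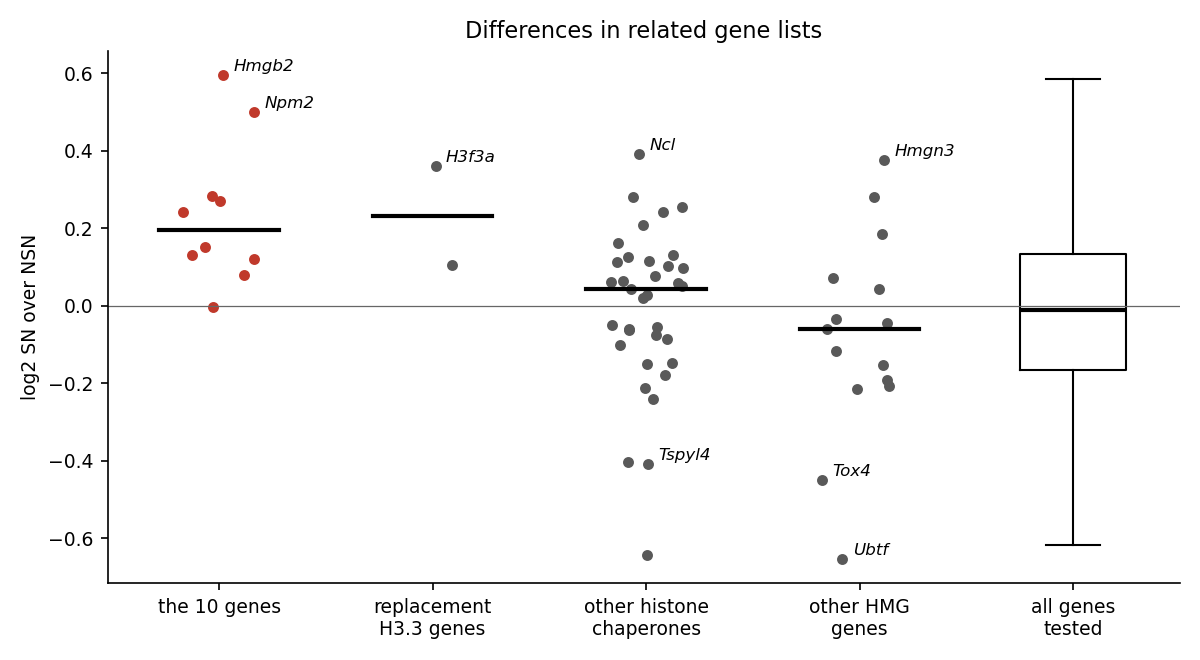
Fitted log2 difference of SN over NSN for the 10 genes, the replacement H3.3 genes, 35 other histone chaperones and 15 other HMG genes, each point a gene and each line the median; the box at the right spans the quartiles of all genes tested, with whiskers to the farthest gene within 1.5 box lengths. The medians are 0.20, 0.23, 0.04 and -0.06, and -0.01 for all genes.

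Libraries held 37023401 and 36922573 estimated counts in SN and 32307398 and 32541920 in NSN, so that a floor of 3 counts lay between 0.0806 and 0.0904 CPM; floors cover counting error only. All 12 markers of the oocyte were tested, and their summed level was 25373 to 30197 CPM in SN libraries and 22945 to 25095 CPM in NSN libraries. The 12 granulosa and cumulus markers summed to 80.1 and 80.7 CPM in SN libraries, and to 86.9 and 74.6 CPM in NSN libraries. Most of that sum came from Cyp19a1 and Nr5a2, but Inha, Hsd17b1 and Fst were highest in NSN replicate 1. Inha was at 3.71 and 6.5 CPM in SN libraries and 11.4 and 4.03 CPM in NSN libraries. Hsd17b1 was at 0.633 and 0.645 CPM in SN libraries and 1.72 and 0.572 CPM in NSN libraries. Fst was at 0.301 and 0.43 CPM in SN libraries and 1.42 and 0.429 CPM in NSN libraries. Cyp19a1 was at 46.6 and 44.2 CPM in SN libraries and 41.2 and 41.4 CPM in NSN libraries. Nr5a2 was at 22.5 and 25.0 CPM in SN libraries and 24.2 and 24.7 CPM in NSN libraries. Among the lowest granulosa genes, Amh had 0 and 7 counts in SN libraries and 11 and 2 in NSN libraries. Foxl2 had 0 in SN libraries and 2 and 0 in NSN libraries. The 7 theca and stroma markers found summed to 7.06 to 7.14 CPM in SN libraries and 8.22 to 9.03 CPM in NSN libraries. The 6 blood, immune and endothelial markers found summed to 15.5 and 18.2 CPM in SN libraries and 13.7 and 15.6 CPM in NSN libraries. Pecam1 made up most of this, at 13.9 and 16.3 CPM in SN libraries and 13.6 and 15.5 CPM in NSN libraries. In that list Hba-a1, a haemoglobin gene, had 18 and 26 counts in SN libraries and 0 in both NSN libraries, and Lyz2, a myeloid gene, 27 and 35 counts in SN libraries and 0 and 1 in NSN libraries. Ptprc, which defines leukocytes, had 0 and 1 counts in SN libraries and 1 and 0 in NSN libraries. The part of these other cells in the differences of the 10 genes was not tested.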

How the data were processed

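Poly(A)-captured RNA of 4 oocyte libraries was analysed from 1 deposited table of 48574 RefSeq transcript models. Per the submitters' processing notes, HISAT2, Bowtie2, RSEM and the build mm10 were used; the notes give no role or order here. The estimated counts, TPM and FPKM per model were deposited by the authors, and 59.8% of the estimated counts are not whole. The authors also deposited a signal that the file headers call normalized read count, and a log2 ratio with a p-value per model. FPKM, the normalized signal and those p-values were not used here. The tool behind the ratios is not given in the sources used here.

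Estimated counts were summed per gene ID and rounded. Genes passing filterByExpr (13426) were scaled by TMM and tested by edgeR 4.0.16 in R 4.3.3 (quasi-likelihood, robust, Benjamini-Hochberg adjusted p of 0.05); the SE comes from the F statistic. Alternatives used DESeq2 1.42.0 and limma 3.58.1. On simulated counts of 13426 genes for the comparison of SN with NSN, the test found 60% of genes changed 1.5-fold and 94% of those changed 2-fold. It found 100% of those changed 4-fold or 8-fold, with 50 genes changed at each size. Over all sizes, 19 calls were false, a larger share of the calls than an adjusted p of 0.05 allows for. The changed genes had a mean of at least 5 CPM, and counts were drawn independently, without a shift of abundant genes between libraries. These shares may therefore not hold for the measured counts. Levels between genes are TPM sums. Coordinates are those of RefSeq GRCm38.p6 for genes and GENCODE M21 for transcript ends.

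The members, lists and tests were chosen with earlier results of these data known. All members are named, as are fixed partners, and from each list the 2 genes with the smallest unadjusted p and the 2 with the highest TPM; other genes named were chosen after their values were seen.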

Additional observations from a re-analysis of the deposited data

How the results depend on the processing

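The count of genes called by edgeR in SN against NSN (0) stayed 0 with limma-voom, with DESeq2 size factors inside edgeR and with cyclic loess. It was 47 with DESeq2 (46 higher, 1 lower in SN), 15 when scaled by library size alone (11 and 4), 15 unfiltered (13 and 2), 47 on log2(TPM + 1) (24 and 23) and 45 on log2(TPM + 0.1) (26 and 19). With a library left out it ranged from 2 to 289. The cause of these shifts was not tested. Npm2 was called by DESeq2, on both TPM scales and without SN replicate 2, and Hmgb2 by DESeq2, with no low-count filter and without SN replicate 2; both were listed for this difference, so these calls add no support. Across the 13 alternatives the log2 ranged from 0.274 to 0.667 for Npm2, 0.414 to 0.757 for Hmgb2, 0.095 to 0.35 for Npm1 and 0.104 to 0.348 for Hmgb1. Signs turned in 6 alternatives for Asf1a, 4 for Asf1b, and 3 each for Npm3, Nasp and Hira.

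With the replicate number as a block, edgeR called 44 genes, all higher in SN, with Npm2 and Hmgb2 among them. Those 2 were listed for this difference, so their calls add no support here either. No label says what the number marks. Deviations of same-numbered libraries correlated at 0.029 over genes, but a single correlation cannot exclude a shared source. Whether the numbers pair the libraries is therefore not known.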

Other observations

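One Hmgb3 transcript model was listed at 0 in both NSN libraries and at 49.9 and 26.7 estimated counts in SN replicates 1 and 2, or 3.92% and 1.48% of the gene's TPM there. A minor Hmgb2 model lay the other way from its gene, at 1.05 and 1.42 TPM in SN libraries and 1.96 and 2.12 TPM in NSN libraries.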
